A study of Mus musculus with 40 samples.

Results

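Prostaglandins are lipid signals made from arachidonic acid. Cyclooxygenases, encoded by *Ptgs1* and *Ptgs2*, turn this fatty acid into prostaglandin H2, and a set of terminal synthases then converts prostaglandin H2 into prostaglandin D2, prostaglandin E2, prostacyclin or thromboxane. Prostaglandin D2 comes from a lipocalin-type synthase (*Ptgds*) and a hematopoietic synthase (*Hpgds*), prostaglandin E2 from *Ptges*, *Ptges2* and *Ptges3*, prostacyclin from *Ptgis* and thromboxane from *Tbxas1*, while *Hpgd* encodes the dehydrogenase that inactivates prostaglandins. In brown adipose tissue (BAT), *Ptgds* is known to be made by brown adipocytes.

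These 10 genes were taken from a table of 20295 genes by their symbols. *Ptgds* was chosen by its values in these data, since it was picked for its fall in C-3BO mice on chow only, so its levels in the C-3BO cohort are described here without a test. The other members were listed for what their proteins do. Of the 10 members, 9 had enough counts to be tested, among 13277 tested genes, and the one that did not was *Ptgs2*.

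BAT was taken from 40 male mice in 8 groups of 5, housed at 29 °C. In the first cohort, 13 to 19 weeks old, C-3BO mice overexpressed *Gpr3*, a receptor that signals through cAMP without a ligand, from a Rosa26 transgene switched on by *Ucp1*-Cre in brown and beige adipocytes. Their control littermates carried either the transgene without Cre or Cre without the transgene, and the labels do not say which mouse was which. These mice ate chow (chow control, chow C-3BO) or a high-fat diet with 60 kcal% fat for 7 days (HFD control, HFD C-3BO). In the second cohort, 15-week-old mice labelled wildtype, which were control littermates of an inducible *Gpr3* line, received daily injections for 9 days of saline at 10 µL/g or of CL-316,243 (CL), a β3-adrenergic agonist, at 1 mg/kg. They too ate chow (chow saline, chow CL) or the high-fat diet for 7 days (HFD saline, HFD CL). The comparisons ask which changes of the C-3BO mice are shared with adrenergic stimulation and with the diet.

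*Gpr3* ran from 266 to 918 CPM in the 10 C-3BO mice. Of the other mice, chow CL replicate 3 had 9.15 CPM and the rest at most 1.18 CPM. CPM are the usual depth-scaled counts, here with each library total multiplied by its TMM factor. Library totals ran from 849126 to 15260516 counts, and the detection floor, set at 3 counts, equalled 0.206 to 3.01 CPM, which covers counting error only. The 12 shallowest libraries comprised the whole HFD saline group, the whole HFD CL group, and HFD C-3BO replicates 4 and 5. The summed level of 15 epididymis genes was 11.0 to 82.3 CPM in these 12 libraries and at most 1.01 CPM elsewhere, and that of 11 liver genes was 92.2 to 426 CPM against at most 5.78 CPM. In the injected mice this set of libraries and the diet cannot be told apart. Brown adipocyte genes were abundant in all 40 libraries, with *Ucp1* between 1116 and 15797 CPM. The labels do not say that replicates were independent preparations, and p-values measure the spread between these samples.

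The 3 members on which most of the account turns are *Ptgds* (mm9, chr2:25322232-25325269, minus strand), *Ptgs1* (chr2:36085946-36107791, plus strand) and *Hpgd* (chr8:58773349-58799843, plus strand). Their promoters are shown because the receptors under study raise cAMP and these genes moved in different ways. Each window covers 250 bases before and 50 bases after the RefSeq gene start in the GRCm38.p6 assembly, at chr2:25469700-25469999 for *Ptgds*, chr2:36230176-36230475 for *Ptgs1* and chr8:56294302-56294601 for *Hpgd*, each written 5′ to 3′ on the strand of its gene.
Ptgds promoter: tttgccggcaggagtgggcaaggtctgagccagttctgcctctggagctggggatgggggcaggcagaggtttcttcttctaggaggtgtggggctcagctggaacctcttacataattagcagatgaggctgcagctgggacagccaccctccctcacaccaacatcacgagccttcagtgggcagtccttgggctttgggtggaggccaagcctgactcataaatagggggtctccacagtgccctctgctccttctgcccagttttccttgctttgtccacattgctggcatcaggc
Ptgs1 promoter: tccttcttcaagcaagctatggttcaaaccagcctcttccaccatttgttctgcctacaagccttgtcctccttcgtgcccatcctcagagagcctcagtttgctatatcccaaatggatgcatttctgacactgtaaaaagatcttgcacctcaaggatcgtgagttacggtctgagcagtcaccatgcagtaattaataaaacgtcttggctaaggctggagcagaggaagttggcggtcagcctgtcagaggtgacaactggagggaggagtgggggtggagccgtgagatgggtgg
Hpgd promoter: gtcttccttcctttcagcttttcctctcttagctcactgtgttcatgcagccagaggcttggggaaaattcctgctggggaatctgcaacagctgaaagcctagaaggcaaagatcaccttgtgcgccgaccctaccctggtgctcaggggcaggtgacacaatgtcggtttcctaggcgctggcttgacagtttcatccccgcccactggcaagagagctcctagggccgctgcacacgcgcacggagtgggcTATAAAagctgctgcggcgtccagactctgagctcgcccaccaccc
Capitals mark a match to the TATA box core TATAAA, found in the *Hpgd* window alone of these 3. It began there 4 bases after the RefSeq gene start. Of all 32851 windows of the same length 13.6% held a match. The cAMP response element TGACGTCA (1.79% of windows), its shorter core TGACG (20.8%, matches to the full element included) and the E-box CACGTG (7.15%), each searched on both strands, were not found in these 3 windows. Among the 9 members with a window, the shorter core of the cAMP response element was found for *Ptgs2* and *Ptges3*. The E-box was found for *Ptgs2* and *Ptges2*, and the TATA box core for *Tbxas1* and *Hpgd*. These matches describe the letters only.

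To compare members with each other, CPM were divided by the exon length in kilobases. *Ptges2*, which encodes a membrane-associated prostaglandin E synthase, had the highest median over the 40 mice, at 64.2 CPM per kb. *Ptges3*, the cytosolic prostaglandin E synthase that is also the Hsp90 co-chaperone p23, followed at 16.4 CPM per kb and *Ptgds* at 13.2. *Hpgd* stood at 5.78, *Ptges*, the inducible microsomal synthase, at 3.26, *Ptgs1* at 2.02 and *Hpgds* at 1.18 CPM per kb. *Tbxas1* and *Ptgis* both stood at 0.73 CPM per kb, and *Ptgs2*, the inducible cyclooxygenase, was lowest at 0.051. *Ptgs2* had 64 counts over all libraries together and a count in 26 of the 40, so its changes could not be measured at this depth. In the chow control group alone, *Ptgds* led all members with a group mean of 185 CPM per kb.

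*Ptgds* was high in 1 of the 8 groups. The 5 chow control mice held 211, 326, 38.6, 44.3 and 125 CPM, a mean of 149 ± 121 (SD, n = 5). The 5 chow C-3BO mice held 4.07, 5.56, 5.26, 3.21 and 5.44 CPM, a mean of 4.71 ± 1.03 CPM. Every chow control mouse was above 30 CPM and none of the other 35 mice was, whose levels ran from 3.21 to 25.9 CPM with a median of 9.79. The log2 fold change of C-3BO against control on chow, the value for which the gene was picked, was -4.98 ± 0.44 (SE).

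The other groups gave the scale against which this fall can be read. In chow saline mice, which also ate chow and did not overexpress *Gpr3*, *Ptgds* was at 7.24, 5.57, 8.85, 7.20 and 5.95 CPM, a mean of 6.96 ± 1.29 CPM. That mean was 1.48 times the mean of chow C-3BO mice, and 21.4 times lower than the mean of chow control mice. The chow control and chow saline groups differ in mouse line, cohort, age and injections, and what sets them apart cannot be told from these data. On HFD, control mice held 8.35, 14.6, 9.20, 19.5 and 9.42 CPM (mean 12.2 ± 4.76) and C-3BO mice 5.17, 8.47, 12.2, 18.9 and 17.4 CPM (mean 12.4 ± 5.82). These 2 groups overlapped almost completely, with a log2 fold change of -0.02 ± 0.40 (SE). Replicates 4 and 5 of HFD C-3BO, which belong to the 12 shallow libraries, had 18.9 and 17.4 CPM against 5.17 to 12.2 CPM in replicates 1 to 3. The log2 fold change of HFD against chow was -3.60 in control mice and 1.36 in C-3BO mice.

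**Figure D1:**
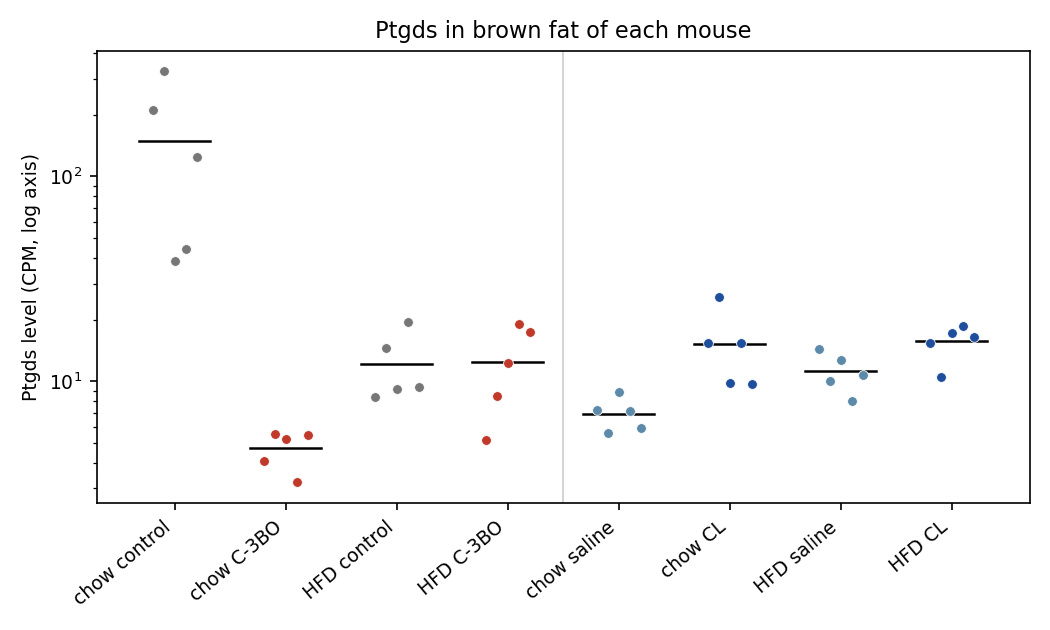
*Ptgds* level in CPM (log axis) of each mouse, with 1 point per mouse and a line at the mean of each of the 8 groups of 5, and a vertical line between the cohorts. All 5 chow control mice lie above 30 CPM and the other 35 lie between 3.21 and 25.9 CPM.

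In order of mean *Ptgds* level, the groups ran from chow control (149 CPM) through HFD CL (15.7), chow CL (15.2), HFD C-3BO (12.4), HFD control (12.2), HFD saline (11.2) and chow saline (6.96) to chow C-3BO (4.71). Neighbours in this order overlapped except at the first step, from chow control to HFD CL, and at the last, where the lowest chow saline mouse (5.57 CPM) was barely above the highest chow C-3BO mouse (5.56 CPM). The spread within the chow control group was also wide, with an SD of 1.35 on the log2 CPM scale, and 99.0% of tested genes had a smaller SD among these 5 mice. The highest chow control mouse was 8.45 times the lowest. Skeletal muscle genes, 9 of them, summed to 633 to 7646 CPM in chow control mice and to 329 to 3178 CPM in chow C-3BO mice. In chow control replicates 1 to 5 the muscle sums were 633, 3888, 7646, 7291 and 5847 CPM. Beside them *Ptgds* was at 211, 326, 38.6, 44.3 and 125 CPM. Epididymis genes summed to at most 1.01 CPM in the chow control group. The other tested members had Pearson correlations of log2 CPM with *Ptgds* from -0.27 (*Ptges2*) to 0.30 (*Ptgis*) over the 40 mice. Without the chow control group, over 35 mice, they ran from -0.58 (*Ptges3*, 0.17 over all 40) to 0.18 (*Ptges2*).

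In the injected mice, which the stated choice did not use, *Ptgds* was tested, though earlier results of these data were known. The 5 chow CL mice held 15.3, 25.9, 9.79, 15.4 and 9.75 CPM, a mean of 15.2 ± 6.57 CPM, and each was above each chow saline mouse. The log2 fold change was 1.11 ± 0.40 (SE), which missed the threshold with edgeR's quasi-likelihood test (adjusted p = 0.0537), while the exact permutation test of the mean log2 CPM gave 0.00794, the smallest two-sided p of 5 against 5 mice, and 0.0540 after adjustment over 68 such tests. DESeq2 gave an adjusted p of 0.0413 and edgeR on these 2 groups alone 0.0163. Of 16 alternative fits, those without 1 mouse included, 4 passed, and the highest adjusted p was 0.186 (edgeR, without 1 mouse). Without chow CL replicate 2 the log2 fold change was 0.85. On HFD the CL mice held 15.5, 10.5, 17.2, 18.6 and 16.5 CPM and the saline mice 14.3, 10.1, 12.7, 8.02 and 10.8 CPM, with overlap and a log2 fold change of 0.41 ± 0.43 (SE, edgeR adjusted p = 0.532). HFD against chow gave a log2 fold change of 0.75 ± 0.43 in saline mice (edgeR adjusted p = 0.252, and 0.0250 with these 2 groups alone) and of 0.05 ± 0.40 in CL mice (edgeR adjusted p = 0.952). The CL effect on HFD minus that on chow was -0.70 ± 0.59 (edgeR adjusted p = 0.738).

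The tested genes whose log2 CPM followed *Ptgds* most closely over all 40 libraries were *BC029214* (Pearson r = 0.72), *Kng2* (0.71), *Phyh* (0.70), *Galm* (0.66) and *Tarsl2* (0.65). Over the 20 chow libraries the closest included *Mkrn2* (0.88), *BC029214* (0.86), *Kng2* (0.85) and *Aldoc* (0.85). These correlations share the high chow control group. Without it, over 35 libraries, *BC029214* kept r = 0.63 and *Kng2* 0.47, while *Mkrn2* fell to -0.21 and *Aldoc* to -0.32. *Aldoc*, the brain-type aldolase, was at 17.9, 19.4, 8.39, 6.95 and 9.18 CPM in chow control mice and reached 7.08 CPM at most in any other mouse.

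*BC029214* lies next to *Ptgds*, at mm9 chr2:25315008-25316614 on the same strand and 5.62 kb from it. It was at 199, 124, 178, 132 and 151 CPM in chow control mice and at 49.1, 53.1, 61.0, 43.4 and 62.1 CPM in chow C-3BO mice. Chow saline mice held 60.8 to 78.2 CPM and chow CL mice 75.3 to 128 CPM of *BC029214*, so the chow control group was high for this gene too, but overlapped the 35 other mice, whose highest was 150 CPM. *Clic3*, singled out after its values were seen, lies 7.94 kb from *Ptgds* on the other strand at chr2:25312363-25314292. Its r was 0.73 over the 35 libraries without chow control and 0.47 over all 40. *Clic3* was at 8.10, 5.16, 16.2, 3.20 and 8.12 CPM in chow control mice and at 1.51, 0.926, 1.08, 0.996 and 5.01 CPM in chow C-3BO mice. The other tested neighbours within 50 kb, *Abca2*, *C8g*, *Fbxw5* and *Traf2*, had r between -0.25 and 0.26 over these 35 libraries.

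**Figure D2:**
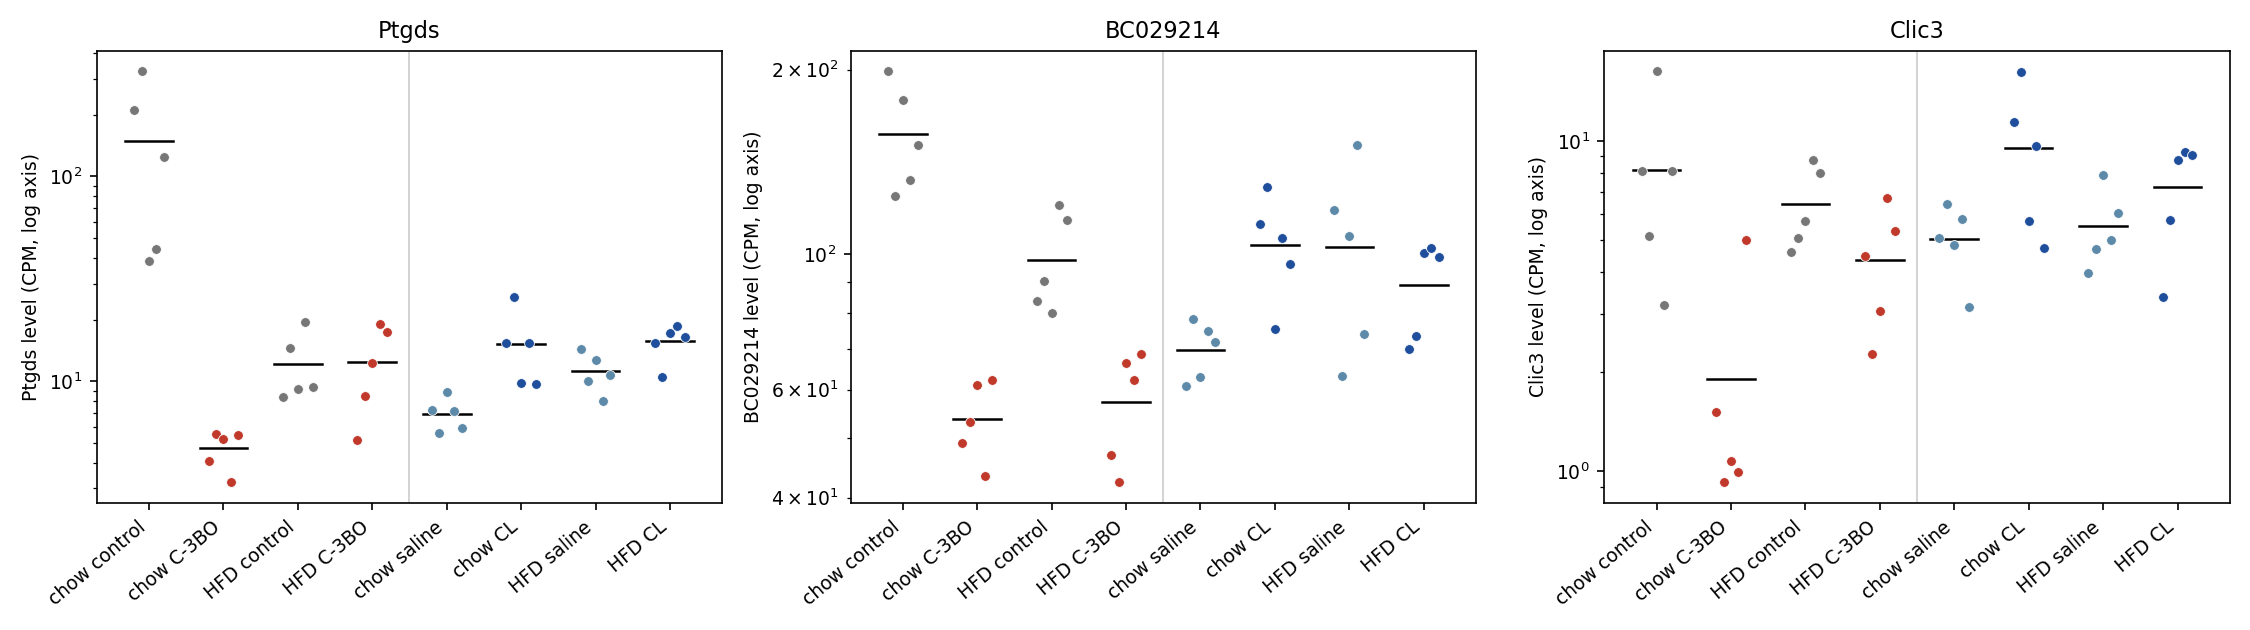
Levels in CPM (log axes) of *Ptgds* and of its neighbours *BC029214* and *Clic3* on mouse chromosome 2, with 1 point per mouse and a line at the mean of each group of 5. *Ptgds* and *BC029214* have their highest mean in chow control mice (149 and 157 CPM), and *Clic3* in chow CL mice (9.53 CPM).

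For the members other than *Ptgds*, C-3BO against control was tested on each diet. On chow, *Hpgd* and *Ptges2* rose and *Ptgs1* and *Ptges3* fell, so that 4 of 8 passed an adjusted p of 0.05, where 31.6% of all tested genes passed. On HFD, *Hpgd* and *Ptges2* rose and *Ptgs1* fell, 3 of 8 against 34.8% of all tested genes. The median log2 fold change of the 8 was -0.37 on chow and -0.30 on HFD, against -0.03 and -0.02 over all tested genes. C-3BO and control mice did not overlap on HFD for *Ptgs1* and *Hpgd*, 2 of the 8, where 20.8% of all tested genes parted in this way. On chow they overlapped for all 8, where 18.5% of all tested genes parted.

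*Ptgs1*, the constitutive cyclooxygenase that starts the pathway, was at 5.62, 7.60, 9.40, 6.39 and 7.19 CPM in chow control mice and at 3.16, 3.59, 2.87, 5.76 and 5.44 CPM in chow C-3BO mice. Only the highest C-3BO mouse reached the lowest control mouse, and the log2 fold change was -0.79 ± 0.19 (SE, edgeR adjusted p = 0.00185). On HFD the control mice held 10.0, 12.6, 10.9, 9.24 and 10.5 CPM and the C-3BO mice 4.35, 5.19, 4.40, 3.26 and 4.51 CPM. The groups were far apart, with a log2 fold change of -1.28 ± 0.19 (edgeR adjusted p = 2.34e-06), the only change of a tested member under C-3BO beyond 1 on the log2 scale. Beside it, 8 macrophage genes summed to 113 to 244 CPM in HFD control and 105 to 136 CPM in HFD C-3BO mice, the endothelium genes to 1401 to 1827 against 1161 to 1327 CPM, and the smooth muscle genes to 388 to 606 against 348 to 421 CPM. On chow the macrophage genes summed to 145 to 234 CPM in control and 106 to 267 CPM in C-3BO mice. The endothelium genes summed there to 710 to 1059 against 466 to 907 CPM, and the smooth muscle genes to 174 to 323 against 228 to 338 CPM. The part of these cells in the *Ptgs1* result was not tested. In bulk tissue, fewer cells of a type and less RNA per cell cannot be told apart.

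*Hpgd*, the enzyme that inactivates prostaglandins, moved the other way. It was at 6.77, 7.60, 3.80, 8.47 and 7.32 CPM in chow control mice and at 14.3, 10.2, 19.5, 12.3 and 7.73 CPM in chow C-3BO mice. The lowest C-3BO mouse lay inside the control range, and the log2 fold change was 0.91 ± 0.22 (edgeR adjusted p = 0.00154). On HFD the control mice held 8.49, 10.4, 9.13, 9.09 and 4.89 CPM and the C-3BO mice 14.8, 16.3, 16.1, 17.7 and 13.9 CPM. All C-3BO mice were above all control mice here, with a log2 fold change of 0.90 ± 0.21 (edgeR adjusted p = 0.00116). Replicates 4 and 5 of HFD C-3BO, from the shallow libraries, had 17.7 and 13.9 CPM, on either side of the other 3.

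**Figure D3:**
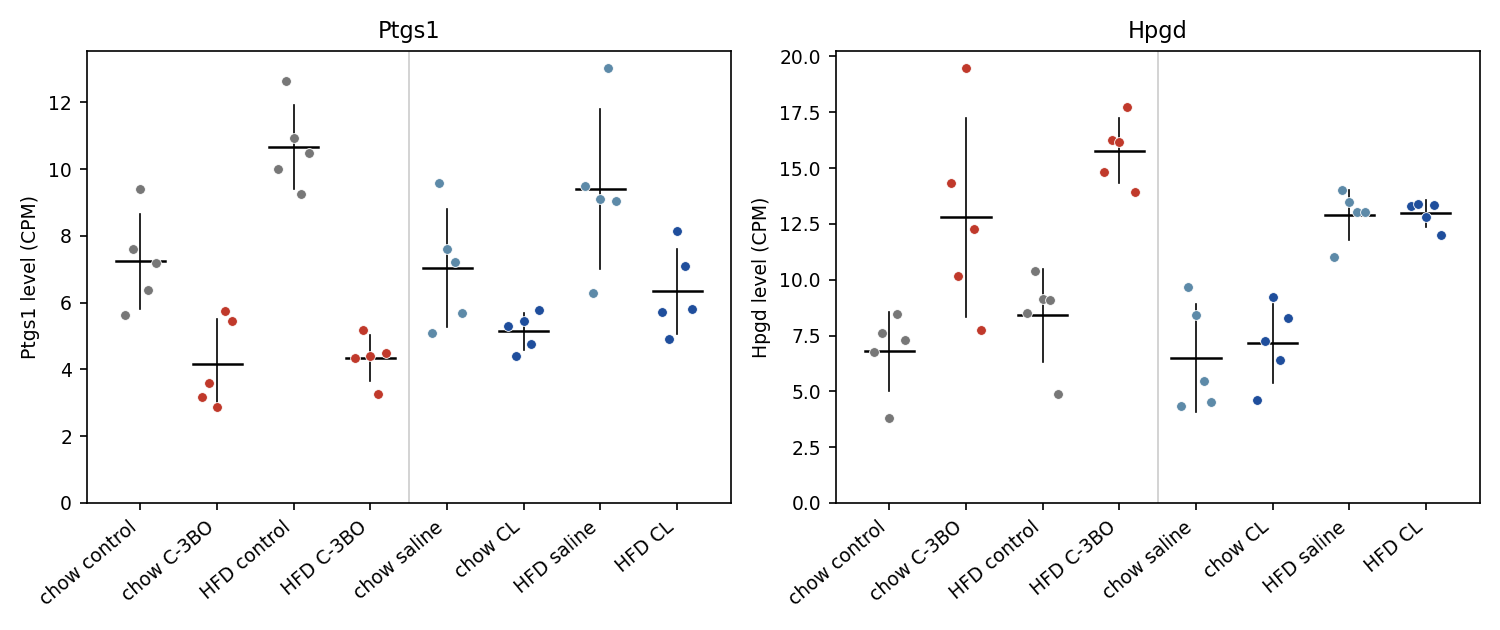
Levels in CPM of *Ptgs1* (left) and *Hpgd* (right) in each mouse, with 1 point per mouse and a line and bar at the mean ± SD of each group of 5. In HFD C-3BO mice *Ptgs1* lies between 3.26 and 5.19 CPM, below all HFD control mice, and *Hpgd* between 13.9 and 17.7 CPM, above all of them.

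Of the prostaglandin E synthases, *Ptges2* (chr2:32251410-32258260) rose by a log2 fold change of 0.40 ± 0.14 on both diets (edgeR adjusted p = 0.0225 on chow and 0.0202 on HFD). It ran from 85.5 to 135 CPM in chow control and from 123 to 156 CPM in chow C-3BO mice, and from 82.2 to 141 against 135 to 158 CPM on HFD, so that the groups overlapped on both. Its call was lost on both diets when libraries were scaled by their totals alone (log2 fold changes of 0.19 and 0.24), without chow control replicate 1 or 2, and without HFD control replicate 1 or 2 or HFD C-3BO replicate 4. On HFD it was also lost with the compared libraries alone (0.39, edgeR adjusted p = 0.0619) and without HFD C-3BO replicates 4 and 5 together (0.35, edgeR adjusted p = 0.104). *Ptges3* (chr10:127496038-127514310) fell on chow, from 37.2 to 50.6 CPM in control to 31.3 to 38.8 CPM in C-3BO mice. The log2 fold change was -0.33 ± 0.13 (edgeR adjusted p = 0.0425), a call that was lost in 7 of 10 fits without 1 mouse and with no filter on low counts (edgeR adjusted p = 0.0721). On HFD *Ptges3* was at 24.5 to 29.3 CPM in control and 24.5 to 45.6 CPM in C-3BO mice, with a log2 fold change of 0.31 ± 0.13 (edgeR adjusted p = 0.0595). For *Ptges3* the difference between the C-3BO effects on the 2 diets, HFD minus chow, was 0.64 ± 0.18 (edgeR adjusted p = 0.0505). *Ptges* (chr2:30744991-30758817) had a log2 fold change of -0.46 ± 0.26 on chow and -0.41 ± 0.29 on HFD, neither past the threshold (edgeR adjusted p = 0.177 and 0.283). In the GENCODE annotation of mm9, 37 exon bases of *Ptges3* are also exon of *Baz2a* on the same strand, and reads there cannot be assigned to either gene with certainty.

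The remaining members did not pass the test under C-3BO. *Ptgis*, the prostacyclin synthase (chr2:167028696-167066037), had a log2 fold change of -0.84 ± 0.45 on chow and -0.74 ± 0.55 on HFD (edgeR adjusted p = 0.151 and 0.310), at 0.204 to 4.81 CPM in this cohort. *Tbxas1*, the thromboxane synthase (chr6:38868985-39034578), had -0.41 ± 0.47 and -0.55 ± 0.51, and *Hpgds* (chr6:65067287-65094724), known from mast cells and other hematopoietic cells, -0.18 ± 0.33 and -0.19 ± 0.36. The 6 mast cell genes listed summed to 1.87 to 9.44 CPM in this cohort. The interaction between C-3BO and diet passed in edgeR for none of the 8 members, with 1 at an unadjusted p under 0.05 and 1 called by DESeq2 (*Ptges3*, adjusted p = 0.0255), where 2.08% of all tested genes passed in edgeR.

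None of the 9 tested members passed under CL in the fit of all libraries. On chow 0 of 9 were called by edgeR against 15.3% of all tested genes, with 3 at an unadjusted p under 0.05 and 1 called by DESeq2. Replicate 5 of chow CL had 1644.5 CPM of *Ucp1*, within the 1267 to 1865 CPM of chow saline mice. The rest of the chow CL group held 5943 to 8987 CPM. Without that replicate edgeR called 2 members on chow, *Ptgds* and *Ptges3*. The number called also moved without chow CL replicate 3, chow saline replicate 2 or chow saline replicate 5. It ran from 0 to 2 over the 10 fits without 1 mouse. Over these fits the edgeR adjusted p reached 0.186 for *Ptgds* and 0.224 for *Ptges3*. On HFD 0 of 9 were called against 23.5%, with 2 at an unadjusted p under 0.05 and 0 called by DESeq2. *Ptgs1* had the lowest adjusted p on HFD, with 9.50, 6.30, 9.10, 13.03 and 9.05 CPM in saline and 5.72, 4.92, 8.14, 7.10 and 5.81 CPM in CL mice, a log2 fold change of -0.51 ± 0.20 (edgeR adjusted p = 0.0609). On chow its log2 fold change was -0.45 ± 0.19 (edgeR adjusted p = 0.0972). When libraries were scaled by their totals alone, edgeR called *Ptgs1* on both diets, at -0.60 (adjusted p = 0.0349) and -0.65 (adjusted p = 0.0247). *Ptges2* had log2 fold changes of 0.27 ± 0.14 and 0.31 ± 0.14 on chow and HFD (edgeR adjusted p = 0.186 and 0.103), of the same sign as under C-3BO. *Hpgd* was at 4.62 to 9.24 CPM in chow CL and 4.32 to 9.69 CPM in chow saline mice, and at 12.0 to 13.4 against 11.0 to 14.0 CPM on HFD, with log2 fold changes of 0.15 ± 0.22 and 0.01 ± 0.23. CL and saline mice parted without overlap on chow for *Ptgds* alone of the 9 (9.4% of all tested genes parted) and on HFD for none (16.4%).

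The difference between the C-3BO and CL effects was tested in itself. On chow none of the 8 other members passed in edgeR, against 6.24% of all tested genes, and on HFD none against 1.8%, with 1 and 3 at an unadjusted p under 0.05 and 0 called by DESeq2 on either diet. For *Hpgd* the C-3BO effect exceeded the CL effect by 0.76 ± 0.31 on chow and 0.89 ± 0.31 on HFD on the log2 scale (edgeR adjusted p = 0.144 and 0.152). With the libraries of these 4 groups alone the HFD value passed (0.87, edgeR adjusted p = 0.0281). It passed in this 1 of 28 alternative fits only, those without 1 mouse included. For *Ptgs1* the difference was -0.34 ± 0.27 on chow and -0.77 ± 0.28 on HFD (edgeR adjusted p = 0.510 and 0.170). In the fit of all libraries the C-3BO and CL effects are thus not shown to differ for any of these members. The CL effect on HFD minus that on chow passed for none of the 9 in edgeR or DESeq2, with 0 at an unadjusted p under 0.05, and for 0.0151% of all tested genes.

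**Figure D4:**
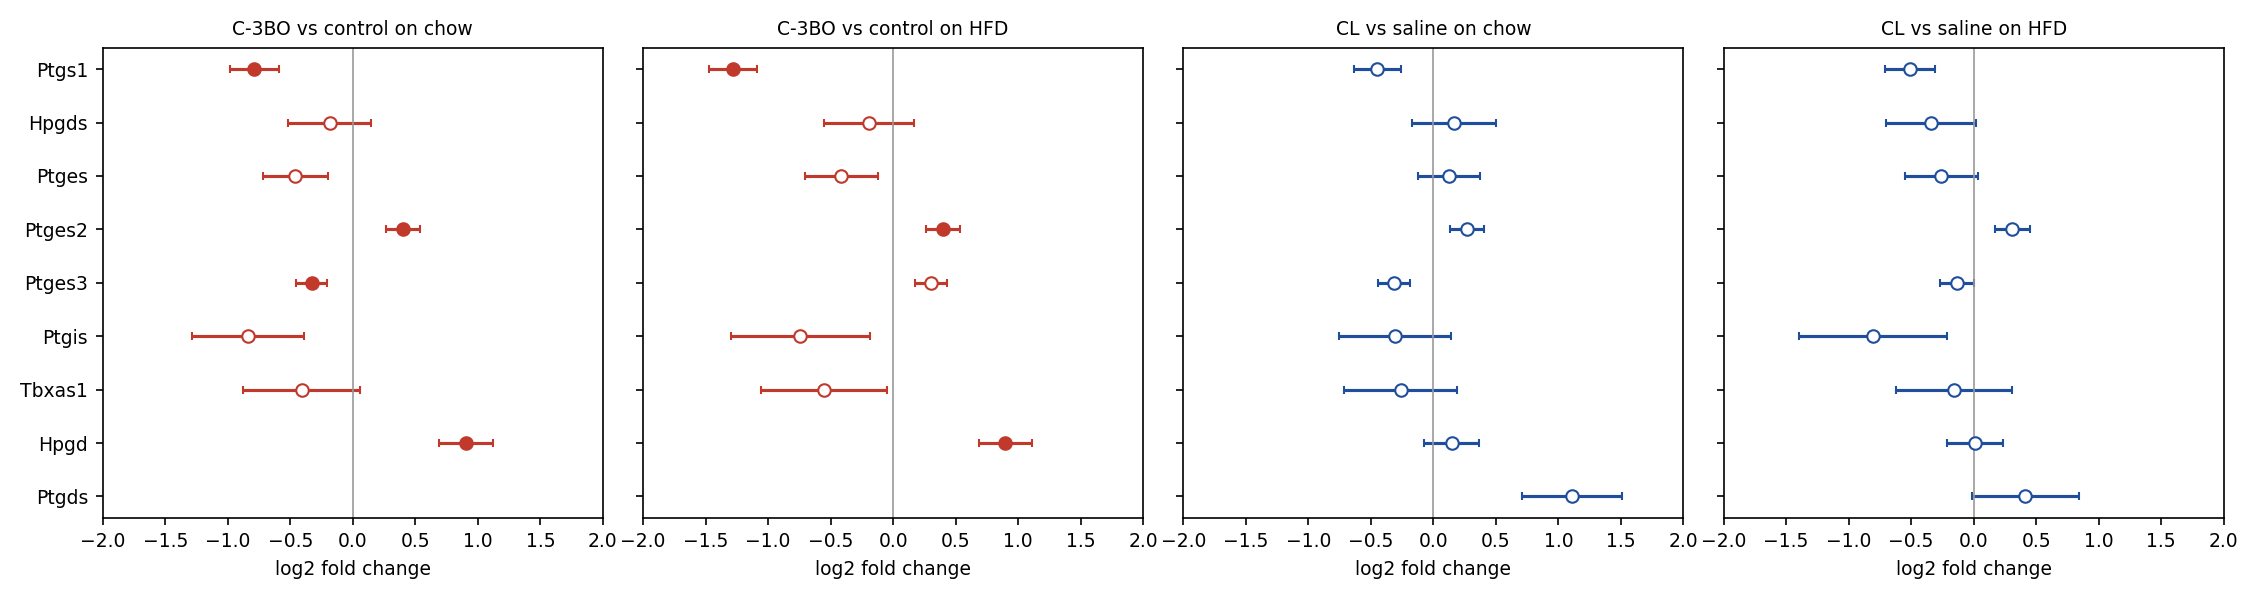
Log2 fold change ± SE of each tested member for C-3BO against control and CL against saline on each diet, with 5 mice in each group. Filled points passed an adjusted p of 0.05, and *Ptgds* is plotted for CL alone. Filled points stand for *Ptgs1*, *Ptges2*, *Ptges3* and *Hpgd* on chow and for *Ptgs1*, *Ptges2* and *Hpgd* on HFD, all under C-3BO.

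*Ptges* was lower on HFD in every arm. In control mice 4 of the 8 other members passed for HFD against chow (32.9% of all tested genes), in C-3BO mice 2 of 8 (25.7%), in saline mice 2 of 9 (15.5%) and in CL mice 2 of 9 (23.6%). *Ptges*, which makes prostaglandin E2 under inflammatory stimuli, was at 12.6, 11.6, 23.3, 16.9 and 16.6 CPM in chow control mice and at 7.34, 4.80, 6.80, 7.98 and 5.36 CPM in HFD control mice, without overlap. Its log2 fold change was -1.31 ± 0.26 (edgeR adjusted p = 0.000175). In C-3BO mice it was at 3.77, 18.8, 15.2, 10.6 and 9.88 CPM on chow and 7.21, 4.85, 4.89, 3.87 and 3.07 CPM on HFD, with a log2 fold change of -1.26 ± 0.29 (edgeR adjusted p = 0.00134). Replicate 1 of chow C-3BO lay inside the HFD range. Saline mice held 12.7 to 25.5 CPM on chow and 7.30 to 12.6 CPM on HFD (log2 fold change -0.83 ± 0.27, edgeR adjusted p = 0.0318), and CL mice 14.7 to 24.8 against 5.63 to 13.6 CPM (-1.22 ± 0.27, edgeR adjusted p = 0.00104). The fall in saline mice lost its call in 5 of 10 fits without 1 mouse and with library totals (-0.65, edgeR adjusted p = 0.0729). In the injected mice this comparison and the shallow libraries cannot be told apart. In first-cohort controls the 9 skeletal muscle genes summed to 633 to 7646 CPM on chow and 4.88 to 187 CPM on HFD. In C-3BO mice they summed to 329 to 3178 CPM on chow and 4.77 to 65.9 CPM on HFD. All 9 were called lower on HFD in both arms by edgeR (32.9% and 25.7% of all tested genes passed). The part of muscle tissue in the *Ptges* falls was not tested.

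*Ptgis* fell with the diet in the first cohort. The skeletal muscle sums given above fell in the same comparisons, and their part in the *Ptgis* falls was not tested. It was at 3.47, 4.25, 4.81, 1.74 and 2.26 CPM in chow control mice and at 0.936, 0.711, 1.03, 0.739 and 2.15 CPM in HFD control mice, with a log2 fold change of -1.60 ± 0.45 (edgeR adjusted p = 0.00603). In C-3BO mice it was at 2.56, 2.66, 2.27, 0.443 and 1.29 CPM on chow and at 0.816, 0.564, 0.734, 0.204 and 0.819 CPM on HFD (-1.50 ± 0.55, edgeR adjusted p = 0.0386). The latter call was lost in 8 of 10 fits without 1 mouse, with library totals (-1.30, edgeR adjusted p = 0.0540) and when both shallow HFD C-3BO libraries were left out (-1.37, edgeR adjusted p = 0.130). In the injected mice the log2 fold change was -0.60 ± 0.50 in saline and -1.10 ± 0.54 in CL mice, neither past the threshold. Replicate 4 of HFD saline, the shallowest library, had 1.00 CPM, below its floor of 3.01 CPM.

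*Ptges3* fell with the diet in control mice, from 37.2 to 50.6 CPM on chow to 24.5 to 29.3 CPM on HFD, without overlap (log2 fold change -0.66 ± 0.13, edgeR adjusted p = 8.26e-05). Its diet change was not past the threshold in the other arms. It was -0.02 ± 0.13 in C-3BO, -0.23 ± 0.13 in saline and -0.05 ± 0.13 in CL mice (edgeR adjusted p = 0.920, 0.236 and 0.807). The chow control group had the highest mean of *Ptges3* of all groups. In control mice *Ptgs1* rose with the diet by 0.56 ± 0.18 on the log2 scale (edgeR adjusted p = 0.0142), a call lost without chow control replicate 1. Smooth muscle genes summed there to 174 to 323 CPM on chow and 388 to 606 CPM on HFD, and endothelium genes to 710 to 1059 and 1401 to 1827 CPM. In C-3BO mice *Ptgs1* changed by 0.07 ± 0.21 (edgeR adjusted p = 0.839). Smooth muscle genes summed there to 228 to 338 CPM on chow and 348 to 421 CPM on HFD, and endothelium genes to 466 to 907 and 1161 to 1327 CPM. *Ptgs1* changed by 0.35 ± 0.19 in saline and 0.29 ± 0.20 in CL mice (edgeR adjusted p = 0.225 and 0.308). The part of these cells in the *Ptgs1* results was not tested. Skeletal muscle genes summed to 633 to 7646 CPM in chow control and 4.88 to 187 CPM in HFD control mice. Their part in the *Ptges3* and *Ptgs1* changes of control mice was not tested.

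*Hpgd* rose with the diet in the injected mice. It was at 4.32, 9.69, 8.40, 5.48 and 4.51 CPM in chow saline and at 11.0, 14.0, 13.5, 13.03 and 13.02 CPM in HFD saline mice, without overlap (log2 fold change 0.99 ± 0.23, edgeR adjusted p = 0.00271). CL mice held 4.62, 7.23, 9.24, 6.41 and 8.29 CPM on chow and 13.3, 13.4, 12.8, 13.4 and 12.0 CPM on HFD, again without overlap (0.86 ± 0.22, edgeR adjusted p = 0.00437). In the first cohort the diet changed *Hpgd* by 0.31 ± 0.22 in control and 0.30 ± 0.21 in C-3BO mice (edgeR adjusted p = 0.295 and 0.327). All HFD libraries of the injected mice belong to the 12 shallow ones, so the *Hpgd* rise there and that set of libraries cannot be told apart. Macrophage genes summed to 150 to 312 CPM in chow saline and 325 to 796 CPM in HFD saline mice beside it. In CL mice they summed to 123 to 391 CPM on chow and 137 to 409 CPM on HFD. The part of these cells in the *Hpgd* result was not tested. *Hpgds* and *Tbxas1* had log2 fold changes of 0.80 ± 0.35 and 0.82 ± 0.46 with the diet in saline mice, neither past the threshold (edgeR adjusted p = 0.117 and 0.233). The mast cell genes summed to 2.04 to 6.57 CPM in chow saline and 4.01 to 16.1 CPM in HFD saline mice, and their part in the *Hpgds* value was not tested.

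Of the 8 other members, the diet parted *Ptges* and *Ptges3* in control mice (18.9% of all tested genes parted), *Hpgds* in C-3BO mice (16%) and *Ptges* and *Hpgd* in saline mice (9.03%) and in CL mice (18.2%). *Hpgds* was at 3.77 to 6.60 CPM in chow C-3BO and 1.77 to 3.55 CPM in HFD C-3BO mice, where edgeR's adjusted p was 0.113 for a log2 fold change of -0.77 ± 0.36.

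**Figure D5:**
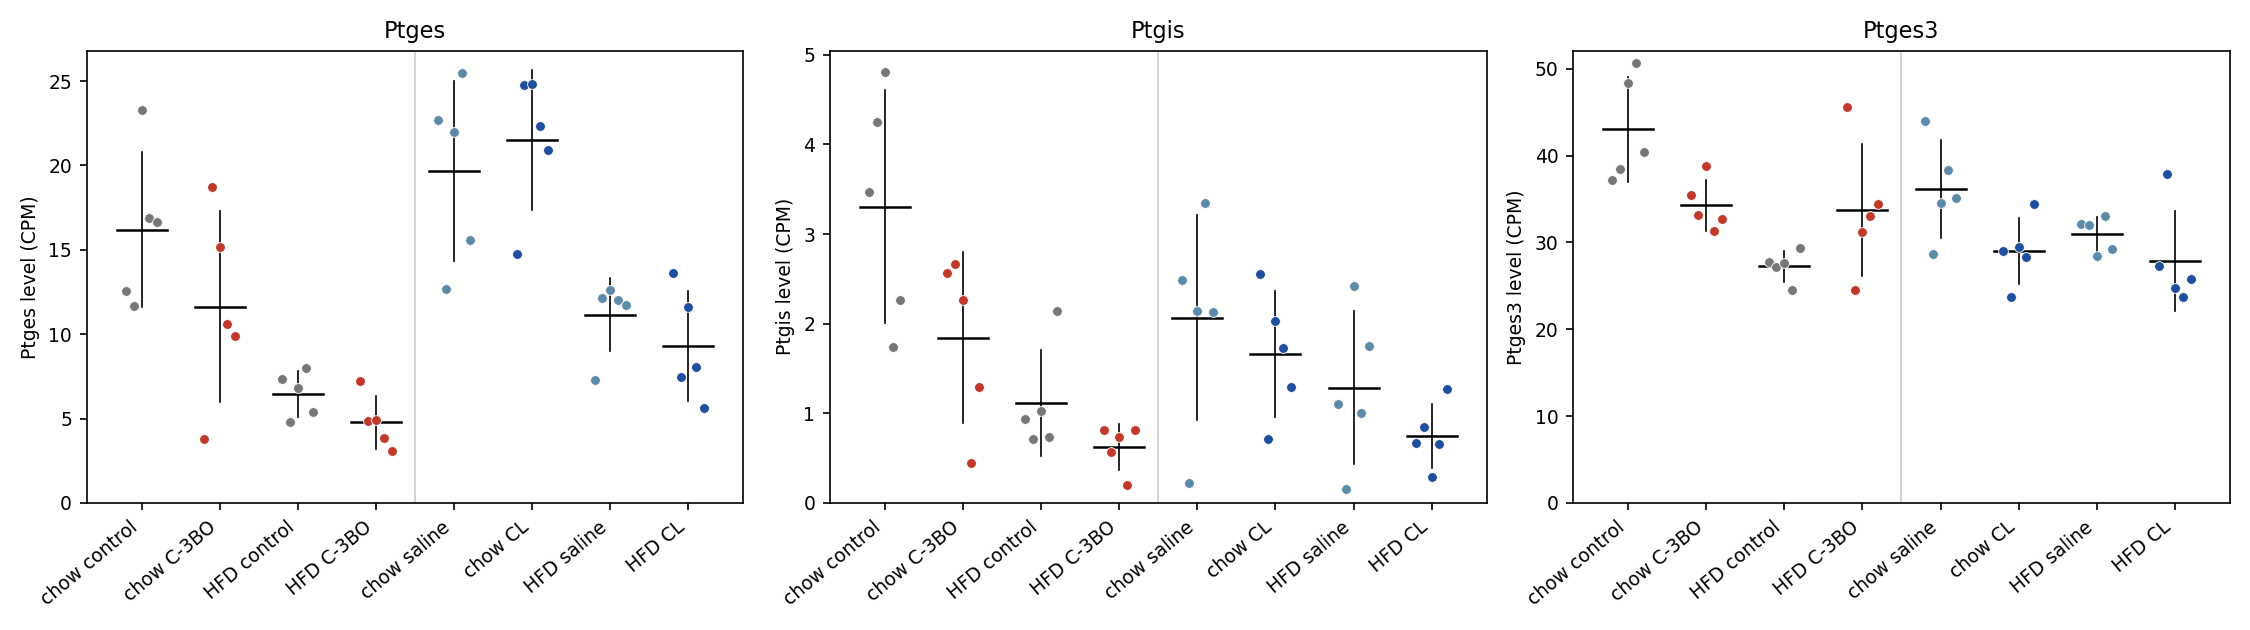
Levels in CPM of *Ptges*, *Ptgis* and *Ptges3* in each mouse, with 1 point per mouse and a line and bar at the mean ± SD of each group of 5. *Ptges* lies at 4.80 to 7.98 CPM in HFD control against 11.6 to 23.3 CPM in chow control mice, and is lower on HFD in the other 3 arms as well.

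Downstream and beside the synthases, 18 further prostanoid genes (the phospholipase that frees arachidonic acid, prostaglandin F synthases, reductases, transporters and receptors) were examined, of which 15 could be tested. Under C-3BO 1 rose and 1 fell on chow (31.6% of all tested genes passed), and 3 rose and 1 fell on HFD (34.8%). Under CL 2 rose and none fell on chow (15.3%), and 2 rose and 1 fell on HFD (23.5%). In none of these 4 comparisons was the called share of the 15 above that of all tested genes. The median log2 fold change of the list was 0.15, -0.11, 0.08 and 0.15 in these 4 comparisons, against -0.03, -0.02, -0.01 and -0.01 over all tested genes. *Ptger1*, the EP1 receptor for prostaglandin E2, rose by 0.87 ± 0.19 under C-3BO on chow, 0.92 ± 0.19 on HFD and 0.97 ± 0.19 under CL on HFD (edgeR adjusted p = 0.000482, 0.000177 and 0.000287). *Ptgir*, the prostacyclin receptor, had log2 fold changes of -0.72 ± 0.19, -0.75 ± 0.18 and -0.62 ± 0.19 in the same comparisons (edgeR adjusted p = 0.00393, 0.00153 and 0.0169).

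*Cbr1*, a carbonyl reductase that acts on prostaglandin E2, rose by 0.61 ± 0.16 under C-3BO on HFD and 0.48 ± 0.16 under CL on chow, and *Ptgr2*, a prostaglandin reductase, by 0.24 ± 0.08 and 0.35 ± 0.08 (edgeR adjusted p at most 0.0386 for all of them). *Abcc4*, which exports prostaglandins, rose by 0.77 ± 0.13 under CL on HFD (edgeR adjusted p = 3.03e-05). With HFD against chow, 4 of the 15 rose and 2 fell in control mice (32.9% of all tested genes passed), 3 rose and 1 fell in C-3BO mice (25.7%), 1 rose in saline mice (15.5%), and 2 rose and 1 fell in CL mice (23.6%).

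The lipoxygenases compete with the cyclooxygenases for arachidonic acid and lead to leukotrienes and hydroxylated fatty acids. Of 9 genes of that branch 5 could be tested. Under C-3BO 1 rose and 2 fell on chow (31.6% of all tested genes passed), and 1 rose and 0 fell on HFD (34.8%). Under CL 1 rose and 1 fell on chow (15.3%), and 1 rose and 1 fell on HFD (23.5%). *Alox12*, a 12-lipoxygenase, rose in all 4 treatment comparisons, by 1.09 ± 0.27 and 1.12 ± 0.26 under C-3BO and by 0.98 ± 0.27 and 1.47 ± 0.30 under CL on chow and HFD (edgeR adjusted p = 0.00230, 0.000975, 0.00967 and 0.000358). *Lta4h*, the hydrolase that makes leukotriene B4, fell by 0.26 ± 0.08 under C-3BO and by 0.30 ± 0.08 under CL on chow. *Ltc4s*, the leukotriene C4 synthase, fell by 0.60 ± 0.22 under C-3BO on chow and by 0.83 ± 0.24 under CL on HFD (edgeR adjusted p at most 0.0373 for these falls). The median log2 fold change of the 5 was -0.26 and -0.21 under C-3BO and -0.48 and -0.54 under CL on chow and HFD. Over all tested genes it was -0.03, -0.02, -0.01 and -0.01 in these comparisons. The diet lowered *Lta4h* alone of the 5 in control mice (32.9% of all tested genes passed). No gene of this branch was called with the diet in C-3BO (25.7%), saline (15.5%) or CL mice (23.6%).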

How the data were processed

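RNA of BAT from 40 mice was sequenced. The authors isolated poly(A) RNA from 1 µg of total RNA, prepared TruSeq libraries, mapped reads to mm9 with STAR, made tag directories with HOMER and counted exon reads per RefSeq gene with iRNA-seq. The deposited values are raw counts per gene and mouse, without normalization. Tool versions and the strand setting are not given in the sources used here. All 40 libraries and all count columns were used, and 0 columns were left out.

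The members and all gene lists were chosen with earlier results of these data known. All 10 members are named. Further prostanoid and lipoxygenase genes are named where called in at least 1 treatment comparison, at most 3 by size per list, comparison and direction, and genes like *Ptgds* are the 5 with the highest Pearson r of log2 CPM, of which 1 over the chow libraries is not reported here. Markers of brown adipocytes, epididymis, liver, skeletal muscle, macrophages, mast cells, endothelium, smooth muscle, fibroblasts, Schwann cells and mesothelium were summed per mouse.

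Genes were kept by filterByExpr of edgeR 4.0.16 (minimum count 10), scaled by TMM and tested with a quasi-likelihood model of 8 group means, with Benjamini-Hochberg adjustment over 13277 genes and a threshold of 0.05. The SE is the log2 fold change divided by the square root of F. Log2 CPM used a prior count of 2. Exact permutation tests counted all 252 regroupings of 5 against 5 mice, two-sided. The alternatives were DESeq2 1.42.0, library totals, RLE factors, no filter, 10 counts in every library, only the libraries compared, a replicate block, each mouse left out, and HFD C-3BO without replicates 4 and 5. Gene positions are those of mm9, counted from 1. Promoter windows come from RefSeq on GRCm38.p6. The work ran in R 4.3.3 with limma 3.58.1, and figures were drawn with matplotlib 3.10.9 in Python 3.11.15.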

Additional observations from a re-analysis of the deposited data

Results flagged for a closer look

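Among the 80 combinations of 10 members and 8 groups, 5 held 1 mouse that stood apart from the other 4 of its group, by the gap to its nearest neighbour against the range of the group. Chance alone marks about 1 in 20 groups. *Hpgds* was at 7.48 CPM and *Tbxas1* at 2.86 CPM in replicate 3 of chow CL, against 2.65 to 3.89 and 0.885 to 1.21 CPM in the other 4 mice. The macrophage genes summed to 391 CPM in that mouse and to 123 to 175 CPM in the other 4, and their part in these values was not tested. *Ptges* was at 7.30 CPM in replicate 1 of HFD saline, against 11.7 to 12.6 CPM in the rest. *Ptges3* was at 37.8 CPM in replicate 2 of HFD CL, against 23.8 to 27.2 CPM, and *Ptgis* at 2.15 CPM in replicate 5 of HFD control, against 0.711 to 1.03 CPM.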

How the results depend on the processing

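The replicate numbers were not used as pairs in the main fit. In no comparison did all 5 same-numbered pairs correlate above 0.1 (at most 3 of 5). For C-3BO on chow the mean r was 0.17 for same-numbered pairs and -0.04 for other pairs, with a highest same-numbered r of 0.44. There 3 of 5 samples correlated best with their own number, so these values cannot decide whether the numbers pair the mice. The fit with a replicate block called 4 members for C-3BO on chow and 3 on HFD, as without it. For C-3BO the alternatives called 3 to 4 members other than *Ptgds* on chow and 2 to 3 on HFD, and fits without 1 mouse 3 to 4 and 2 to 4. Library totals lost *Ptges2* on both diets and added *Ptges* on chow. CL against saline, 0 members called on either diet, gave 2 on chow (*Ptgs1* and *Ptges3*) and 1 on HFD with library totals, 1 on chow with DESeq2 (*Ptgds*, adjusted p = 0.0413), and 1 on each with the compared libraries alone. Without 1 mouse it gave 0 to 2 on chow and 0 to 1 on HFD. The interaction of C-3BO with diet, 0 members called, gave 1 (*Ptges3*) with library totals, RLE factors, 10 counts in every library and DESeq2, and 0 to 1 without 1 mouse. HFD against chow in C-3BO mice, 2 called, gave 1 with 10 counts in every library (where *Ptgis* was not tested), 2 with library totals (with *Ptgis* lost), 1 without replicates 4 and 5, and 1 to 2 without 1 mouse. In saline mice, 2 called, it gave 2 with library totals (*Ptges* lost and *Hpgds* gained) and 1 to 3 without 1 mouse. The C-3BO minus CL effect on HFD, 0 called, gave 1 (*Hpgd*) with the compared libraries alone. Of the 5 genes most like *Ptgds*, 2 were also among the 5 of the 20 chow libraries. *Hpgd* under CL, near 0 throughout, changed sign with library totals (-0.0083 on chow, -0.13 on HFD), with no filter (-0.006), with the compared libraries alone (-0.0044) and without 1 mouse (-0.0394 to 0.0378, all on HFD). The cause of these changes was not tested. The shallowest library limits *Ptgis*, *Tbxas1* and *Ptgs2* most.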

Other observations

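Marker lists of cells not described above moved as follows. With 6 genes each, smooth muscle had 3 genes lower under C-3BO on HFD (34.8% of all tested genes passed in either direction), fibroblasts had 4 lower under CL on HFD (23.5%), and Schwann cells had 1 lower in each of these comparisons by edgeR. On chow, C-3BO changed no smooth muscle or fibroblast gene past the threshold (31.6% of all tested genes passed). Of 5 mesothelium genes 1 had enough counts for the test, and the list summed to 2.48 to 11.0 CPM over all mice. The 6 endothelium genes were all higher in HFD than in chow control mice (32.9% of all tested genes passed), and 4 of them were lower in HFD C-3BO than in HFD control mice (34.8%).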
